A study of Mus musculus with 4 samples.

Results

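RFX2 binding was examined at 7 genes in mouse testis, namely the 6 genes that encode the subunits of the intraflagellar transport A complex (IFT-A) and Tulp3, the gene of the adaptor that works with this complex. The genes were taken by name, and the choice was made with earlier results of these data known. They stand among 21938 protein-coding genes of the annotation. Chromatin immunoprecipitation followed by sequencing (ChIP-Seq) was performed on decapsulated testes of wild type (WT) mice at postnatal days 29 to 30, on a mixed background of C57BL/6, 129/Sv and FVB/N, with an antibody against RFX2. There were 2 ChIP samples and 2 inputs, which are chromatin sequenced without the antibody step and enter here only through the authors' peak calling. No source used here says whether the 2 replicates came from separate mice. In the text of the study the material is instead dissociated germ cells of younger mice, which the peak lists cannot settle. Since whole testis holds many cell types, a peak cannot be assigned to one of them.

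Intraflagellar transport carries cargo along the microtubules of cilia and of the sperm flagellum. IFT-B trains move outward with kinesin-2, whereas IFT-A is needed for the return to the base with dynein-2 and for the entry of membrane proteins. The core of IFT-A is formed by IFT122, IFT140 and WDR19 (also called IFT144), and its periphery by IFT43, WDR35 (IFT121) and TTC21B (IFT139). TULP3, of the Tubby family, binds membrane phosphoinositides and IFT-A and brings receptors into the cilium. Several RFX factors regulate ciliary genes, and RFX2 is among those known or predicted to form dimers. Its motif, the X-box, is an inverted repeat in which a pair of 6-bp half-sites face each other.

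Peaks were read from 3 lists for build GRCm38. The replicate 1 list held 39825 peaks, the replicate 2 list 21274 and the list called combined here 2726. The score is the value that the authors' peak caller gives on a −log10 scale, with medians of 4.47, 5.06 and 82.1 in the 3 lists. The lowest scores were 2.03, 2.08 and 43.2, so the replicate lists include weak peaks. Rank 1 is the highest score of a list. Scores depend on depth, which is unknown, so lists were compared by rank. The combined list appears to be a call on pooled reads and is then no independent replication of the replicates. The methods of the study also select peaks by their reproducibility between the replicates (irreproducible discovery rate). The number of reproducible peaks they report is close to the 2726 of the combined list but not the same. Whether the combined list passed that step is not stated, so absence from it is given only as a fact of the list. A promoter was taken as 1000 bp upstream to 500 bp downstream of any annotated transcription start site (TSS) of the gene, and a peak was counted there when it met this window by at least 1 bp. A gene is called bound where a promoter peak was listed, however weak.

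Of the 7 genes, 6 had a promoter peak in replicate 1, where 14% of all protein-coding genes had one. The same 6 genes, Ift122, Ift140, Wdr19, Ift43, Wdr35 and Tulp3, had a promoter peak in replicate 2, against 11.3% of all genes, and in both replicates, against 9.05%. The combined list held promoter peaks of 3 members, Ift122, Wdr35 and Wdr19, against 5.26% of all genes. Ttc21b had no promoter peak in any list, where 16.2% of all genes had one in at least 1 list. The core subunits had a promoter peak in both replicates at 3 of 3 genes and the peripheral subunits at 2 of 3. The core count includes Ift140, which was not counted in replicate 1 when only the 5′-most coding TSS was used. No test of the set was made, and these counts describe the 7 genes only.

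**Figure D1:**
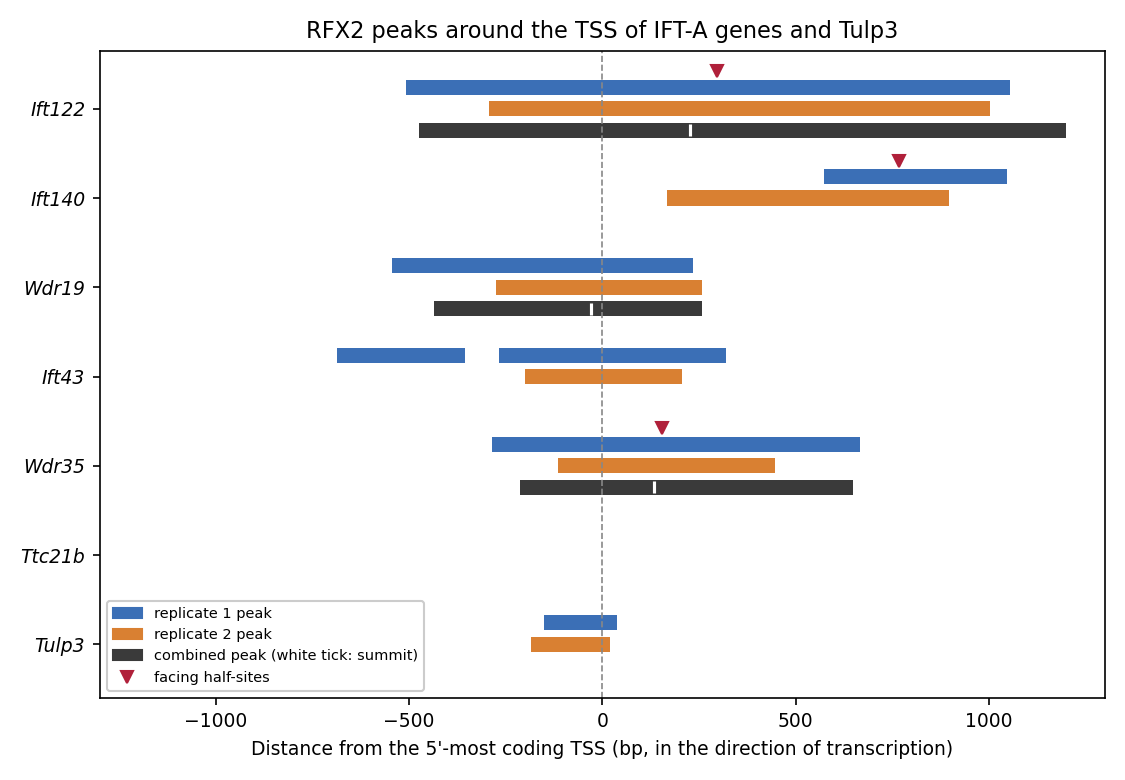
Peaks within 1300 bp of the 5′-most TSS of a coding transcript of each gene. The x axis gives the distance in bp in the direction of transcription, bars span the peaks of each list, white ticks are the summits of combined peaks, and triangles mark the best pair of facing half-sites in the peak where its half-sites had at most 2 mismatches. Peaks lay over the TSS at Ift122, Wdr19, Ift43, Wdr35 and Tulp3 and downstream of it at Ift140, and Ttc21b had none.

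Ift122, which encodes a core subunit, had the strongest peak of the set in every list. It scored 171 in replicate 1 (rank 202, within the first 0.507% of the list) and 92.8 in replicate 2 (rank 148, within the first 0.696%). These peaks spanned chr6:115852962-115854524 and chr6:115853178-115854474. The combined peak at chr6:115852995-115854671 was 1677 bp wide, with a −log10 p of 207 and an enrichment of 14.2-fold, and ranked 226 of all peaks and 143 of the 1003 promoter peaks. Its summit at 115853696 lay in exon 1, 226 bp downstream of the 5′-most coding TSS. The peak also met the promoter of Mbd4, the gene of a DNA repair glycosylase, whose TSS lies 99 bp away on the other strand, so the lists do not assign it to one of the pair. Among the promoter peaks of the set, the X-box closest to the palindrome GTTGCCATGGCAAC lay here, at chr6:115853760-115853773, 70.5 bp downstream of the summit. It is shown with 24 bp on each side, on the strand of the gene and with the X-box in capitals.
Ift122: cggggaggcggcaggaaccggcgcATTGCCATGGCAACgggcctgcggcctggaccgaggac
The site differed from the palindrome by G1A, where position 1 is the 5′ base. It lay inside the peaks of all 3 lists. At most 1 mismatch was found at the summits of 9.57% of combined promoter peaks.

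Ift140 encodes the second core subunit, and its nearest peaks lay wholly downstream of the 5′-most coding TSS, whereas those of the other 5 bound genes covered it. Replicate 1 had a peak of 472 bp at chr17:25016660-25017131, with a score of 27.6 (rank 3322). Replicate 2 had a peak of 729 bp at chr17:25016253-25016981, with a score of 25.5 (rank 1355). The peaks shared 322 bp and their centres were 278 bp apart, whereas the median distance over 1830 pairs of overlapping promoter peaks was 62.5 bp. Both met the promoter of Cramp1l, whose TSS lies 297 bp away on the other strand. A pair of X-boxes with 3 mismatches each lay near the TSS, 1 inside the peaks of both replicates and 1 upstream that no peak covered, and they are shown together for that reason, with positions relative to the 5′-most coding TSS.
Ift140, at +767.5 bp, in both peaks: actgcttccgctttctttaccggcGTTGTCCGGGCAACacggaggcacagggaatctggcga
Ift140, at −109.5 bp, in no peak: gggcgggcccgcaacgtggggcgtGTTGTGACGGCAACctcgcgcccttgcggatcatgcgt
The site inside the peaks, at chr17:25016846-25016859 in exon 1, differed from the palindrome by C5T, A7C and T8G, of which 1 lay in the half-sites and the others between them. It lay within 100 bp of the peak centre in replicate 1 but not in replicate 2, where the best match that close to the centre had 6 mismatches. The site outside the peaks, at chr17:25015969-25015982, differed by C5T, C6G and T8C. Sites with at most 3 mismatches were present in 8.96% of all promoters, taken as 1000 bp upstream to 500 bp downstream of the 5′-most coding TSS. Of the sites shown, only the one outside the peaks lies in that window. A further, weak peak of replicate 2 (score 4.14, rank 14495) met the TSS of a non-coding transcript of Ift140, 15761 bp downstream, and replicate 1 had none there.

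Ift140 was not met by the combined list, although it scored higher in both replicates than Wdr19, which was. Among 1328 pairs of overlapping peaks that scored at least as high as Ift140 in each replicate, Ift140 itself included, 1324 (99.7%) were met by a combined peak and 4 were not. In the other 3 of these 4 pairs the centres were between 20 and 176 bp apart. The nearest combined peak on the chromosome lay 454933 bp away, at the promoter of Tekt4.

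Wdr19, the third core gene, had a weaker peak over the TSS. The score was 25.4 in replicate 1 (rank 3603, chr5:65199151-65199931) and 12.7 in replicate 2 (rank 2871, chr5:65199422-65199954). The combined peak at chr5:65199261-65199953 ranked 2594 of 2726. Its −log10 p of 46.1 was close to the lowest of the list, 43.2, and its enrichment was 8.45-fold. Its summit at 65199668 lay at −28 bp relative to the TSS. The peak held no X-box, with 6 mismatches at best, and no pair of half-sites with fewer than 4 mismatches. The best match to a weight matrix built from 2055 X-boxes of other combined peaks was centred 0.5 bp from the summit, at chr5:65199662-65199675, and is shown because of this position.
Wdr19: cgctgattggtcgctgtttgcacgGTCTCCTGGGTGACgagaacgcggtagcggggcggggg
Its matrix score of 5.69 was below the threshold of 10.6, and 5.14% of windows beside the peaks held a match as high.

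Wdr35, a peripheral subunit, had the second strongest peak of the set. It scored 60.3 in replicate 1 (rank 1438, chr12:8973607-8974559) and 44.7 in replicate 2 (rank 606, chr12:8973778-8974338). Of the 592 pairs of peaks at least as high in both replicates, all were met by the combined list. The combined peak at chr12:8973678-8974540 had an enrichment of 13.95-fold and a −log10 p of 110, which placed it at rank 891. Its summit at 8974026 lay in exon 1, 134 bp downstream of the TSS. No X-box of 14 bp was found, with 5 mismatches at best. A pair of half-sites with 1 base between them in place of 2 lay at chr12:8974041-8974053, centred 21 bp downstream of the summit, with 1 mismatch over the 12 bases of the half-sites. This spacing was searched only after the data were seen.
Wdr35: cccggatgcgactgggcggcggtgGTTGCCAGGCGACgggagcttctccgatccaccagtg
The first 6 capitals are the half-site GTTGCC without a mismatch. A pair of this spacing, with at most 1 mismatch, occurred at the summits of 32 of the 1003 combined promoter peaks (3.19%) and in none of the windows placed 1000 bp to the right of them. Replicate 1 alone had 2 more peaks inside the gene, with scores of 5.99 and 7.27.

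Ift43, the smallest peripheral subunit, had a peak centred on the TSS in both replicates. The score was 19.8 in replicate 1 (rank 4670) and 8.44 in replicate 2 (rank 4451). The peaks, at chr12:86082297-86082882 and chr12:86082362-86082769, were centred 26 and 2 bp downstream of the TSS, in exon 1. A second, weak peak centred at −520 bp was found in replicate 1 only (score 3.89). The promoter peaks held no X-box, with 5 mismatches at best, and the best pair of half-sites had 3 mismatches. The combined list had no peak at the promoter. Of 3382 pairs at least as high in both replicates, 77.6% were met by that list. Of the 1148 promoter pairs among them, 86.0% were met by that list. Both shares include far stronger pairs. None of the other promoter pairs that scored 19.8 in replicate 1, as Ift43 did, was met by the combined list. Absence at Ift43 was therefore not unusual for its score. The nearest combined peak lay 99549 bp downstream of the TSS and 19653 bp beyond the end of the gene, in an intron of Gm805. It was weak in that list, at rank 2646 (−log10 p 44.4, 13.2-fold). Both replicates had it, with scores of 33.6 and 14.2, which are higher than those at the Ift43 promoter. An X-box with 1 mismatch was centred 7.5 bp from its summit, at chr12:86182598-86182611. It is shown on the forward strand as a distal contrast to the promoter.
Distal peak beyond Ift43: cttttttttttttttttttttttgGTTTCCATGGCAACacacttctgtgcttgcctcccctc

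Ttc21b, the third peripheral gene, was the exception in the set. Its promoter, around the TSS at chr2:66256617 on the reverse strand, met no peak of any list. The best match to the palindrome in the promoter had 5 mismatches. The lists hold only peaks above the authors' thresholds, so weaker binding was not detectable here. The nearest peaks were 13847 bp from the TSS in replicate 1 (score 3.64, in exon 6) and 77209 bp in replicate 2 (score 6.03). A strong peak lay beyond the other end of the gene. It scored 58.7 in replicate 1 (rank 1486) and 32.8 in replicate 2 (rank 950). In the combined list it lay at chr2:66177491-66178773 in intergenic sequence, 5554 bp from the 3′ end of Ttc21b and 77844 bp from its TSS. Its rank was 1158, its −log10 p 92.4 and its enrichment 20.8-fold. The nearest TSS of another gene was that of Galnt3, to which the summit lay at −53070 bp. Its X-box, at chr2:66178059-66178072, had 3 mismatches and was centred 1.5 bp from the summit, and is shown on the forward strand.
Peak beyond Ttc21b: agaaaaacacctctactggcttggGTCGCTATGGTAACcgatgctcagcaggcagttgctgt
The lists do not say which gene, if any, this site belongs to. Ttc21a, the paralogue of Ttc21b, had promoter peaks in both replicates, with scores of 17.3 and 20.6, and none in the combined list.

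Tulp3 had the weakest promoter peaks among the 6 bound genes. The score was 10.2 in replicate 1 (rank 8439) and 6.68 in replicate 2 (rank 5771). These peaks, at chr6:128355814-128356002 and chr6:128355831-128356035, were 189 and 205 bp wide and centred at −57 and −82 bp relative to the TSS. Both still ranked in the upper 50% of their lists, at 21.2% and 27.1% of the length. The palindrome was matched with 6 mismatches at best. A second peak, met in replicate 1 only (score 6.29), lay 10336 bp downstream, in the promoter of another transcript that starts inside Tulp3. Of 4682 pairs at least as high in both replicates as the main peak, 57.8% were met by the combined list. Of the 1370 promoter pairs among them, 72.8% were met by that list. These shares include far stronger pairs. None of the other promoter pairs that scored 10.2 in replicate 1, as Tulp3 did, was met by the combined list. Absence at Tulp3 was therefore not unusual for its score. The nearest combined peak lay 59580 bp upstream of the TSS, in an intron of Nrip2 that overlaps exon 2 of a non-coding Itfg2 transcript. An X-box with 1 mismatch was centred 15.5 bp from its summit, at chr6:128415804-128415817. Of the other 4 genes of the Tubby family, only Tub had promoter peaks, with a rank of 434 in the combined list and scores of 103 and 57.0 in the replicates, whereas Tulp1, Tulp2 and Tulp4 had none in any list.

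The order of the 6 bound members was the same in both replicates. By score, replicate 1 gave Ift122, Wdr35, Ift140, Wdr19, Ift43 and Tulp3, from 171 to 10.2, and replicate 2 gave the same order, from 92.8 to 6.68. Ift140 and Wdr19 were close in replicate 1, at 27.6 and 25.4, and further apart in replicate 2, at 25.5 and 12.7. The ratio of the score in replicate 1 to that in replicate 2 ran from 1.08 at Ift140 to 2.35 at Ift43, and its median over all 1830 pairs of promoter peaks was 2.01. With 1 value per list and gene, no spread could be given for a single score, so differences between neighbours in this order were not tested.

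**Figure D2:**
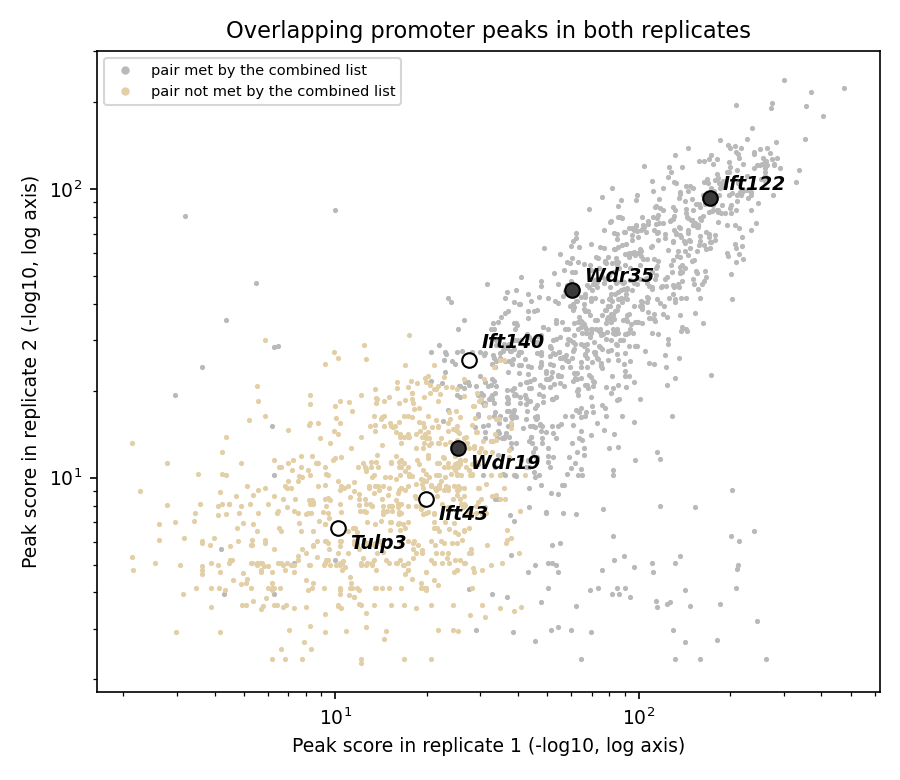
Scores of overlapping promoter peaks in replicate 1 (x axis) and replicate 2 (y axis), both on a −log10 scale and drawn on log axes. Small points are all pairs, circles are the members, filled where the pair was met by the combined list. Ift140 (27.6 and 25.5) is open, whereas Wdr19 (25.4 and 12.7) is filled. The other pairs closest to Wdr19 were not met by the combined list.

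In the combined list all 3 members had a lower fold enrichment than the median of promoter peaks, which was 15.0. Fold enrichment compares the reads at the summit with the local background. At Ift122, 1 of the 50 promoter peaks closest to it in −log10 p had a lower fold, and their median was 22.8. Wdr35 (13.95) lay closer to its 50 neighbours in promoters, whose median was 15.1, with 22 of them lower. Wdr19 (8.45) also lay near its neighbours, with a median of 9.24 and 17 of them lower. Against the 50 closest peaks outside promoters none of the 3 members had a neighbour with a lower fold, and the medians of those neighbours were 35.0 for Ift122, 24.7 for Wdr35 and 14.8 for Wdr19. The peak at Ift122 was also wide, at 1677 bp against a median of 1111 bp in its neighbours.

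**Figure D3:**
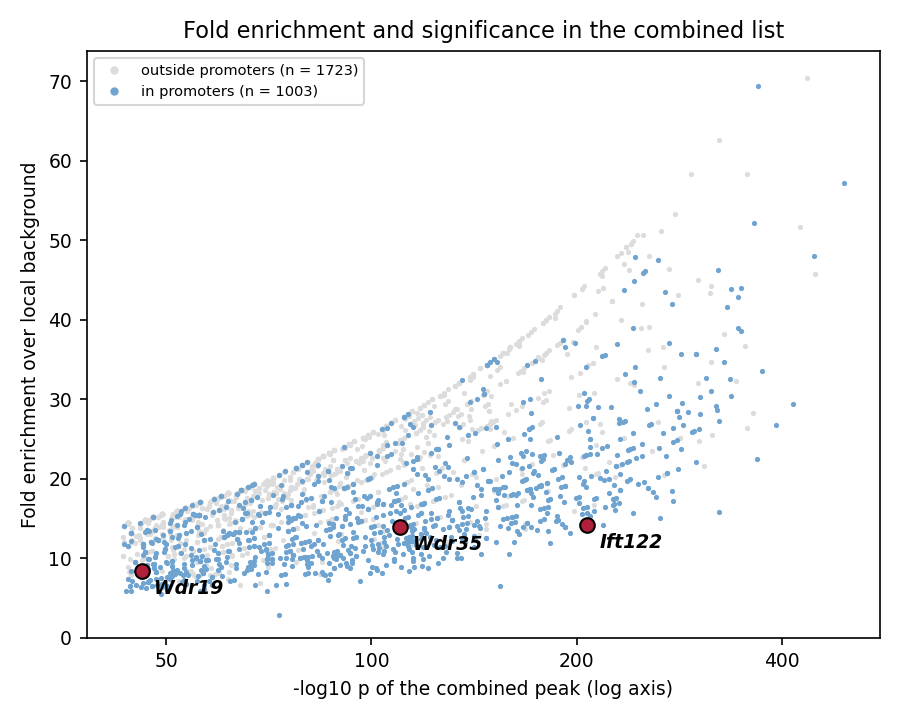
Fold enrichment over local background (y axis) against −log10 p (x axis, log axis) for all combined peaks, in promoters (blue, n = 1003) and outside (grey, n = 1723). Red circles are the members. Ift122 (207, 14.2-fold) lies at the lower edge of the points, whereas Wdr35 and Wdr19 lie among the promoter peaks.

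Among the members with a combined promoter peak, 1 of 3 had a 14-bp X-box within 100 bp of the summit, where 58.9% of all combined promoter peaks had one. Windows placed 1000 bp to the right of promoter peaks held one at 0.798%. G+C within 500 bp of the TSS on either side ran from 50.7% at Ift43 to 64.2% at Tulp3, and the median of all protein-coding genes was 54.9%. The ratio of observed to expected CpG in the same windows was above the median of all genes, 0.561, at each of the 7 members, from 0.575 at Wdr19 to 1.05 at Ift140. The median over genes with a promoter peak in replicate 1 was 0.686.

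The same lists were read for the partners of IFT-A. All 5 dynein-2 genes, which encode the motor of return transport, had combined promoter peaks, with ranks from 57 for Dync2h1 to 1039 for Wdr60. Of the IFT-B core genes, 9 of 12 had one, as did 4 of 6 peripheral IFT-B genes. In the IFT-B core the ranks ran from 9 at Ttc30a2 to 2664 at Ttc30a1, and values at these copies are uncertain, since reads with several locations were discarded by the authors. The CPLANE genes, whose products help to load peripheral IFT-A subunits, had 4 of 5, and the exception, Cplane1, had a peak in replicate 1 only (score 6.52). None of the 5 kinesin-2 genes and none of 7 genes for membrane proteins that depend on IFT-A and TULP3 had a combined promoter peak. The replicate lists, which are far longer, held more of them. Promoter peaks were present at 3 of 5 kinesin-2 genes in replicate 1 and 2 of 5 in replicate 2, with 1 gene, Kif3b, in both. Of the 7 cargo genes, 1 had a promoter peak in replicate 1 and 2 in replicate 2, with Arl13b in both. For comparison, 5.26% of all genes had a combined promoter peak and 9.05% a promoter peak in both replicates. The shares were 14% in replicate 1 and 11.3% in replicate 2. Having no combined peak among 5 or 7 genes is near the share of all genes, as is 1 of 7 cargo genes in replicate 1.

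**Figure D4:**
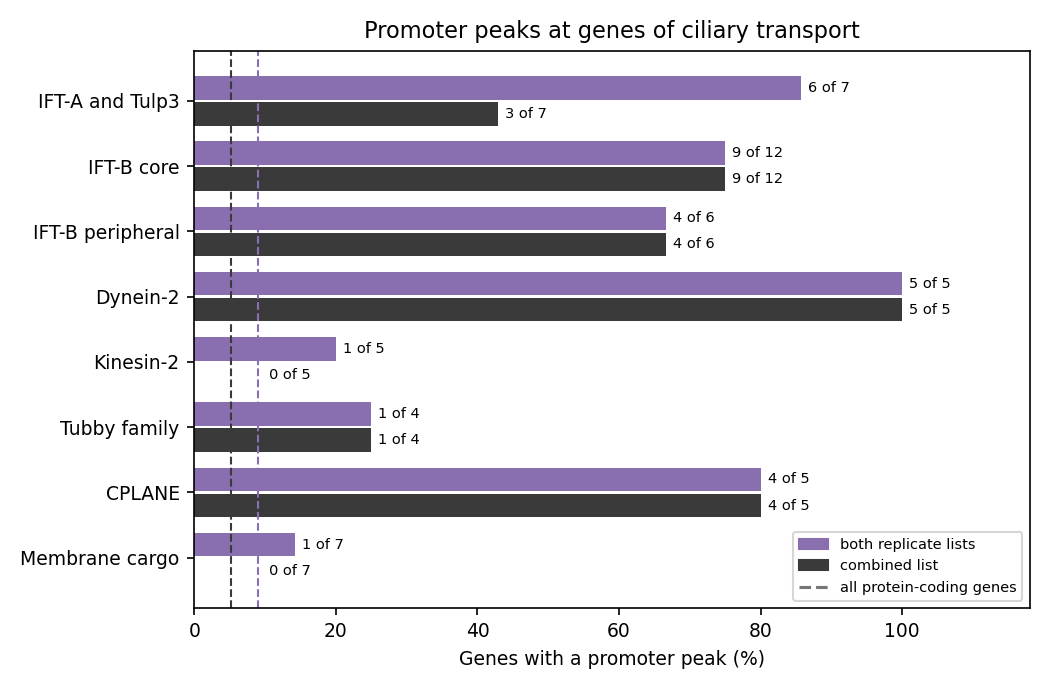
Percentage of genes with a promoter peak in both replicate lists (purple) and in the combined list (black), by group of genes. Bars start at 0 and carry the counts, and dashed lines give the percentages over all protein-coding genes, 9.05% and 5.26%. IFT-A and Tulp3 drop from 6 of 7 to 3 of 7 between these lists, whereas dynein-2 stays at 5 of 5.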

How the data were processed

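ChIP-Seq was analysed from 3 deposited peak lists. Per the supplementary methods and the submitters' processing notes, the authors mapped reads to GRCm38 with Bowtie 0.12.7, discarded reads with several locations, removed reads that map to the human genome from the second run of replicate 2, and called peaks with MACS2 2.0.10.20130520 against input. The deposited replicate lists hold a single −log10 value for each peak, and whether it is a p-value or a q-value is not given in the sources used here. The deposited combined list gives a score (the whole part of 10 times −log10 p), −log10 p, −log10 q (not used), the fold enrichment as a ratio, and the summit. The archive attaches it to replicate 2, but its peak names begin with "all". The number of reads is unknown.

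Groups and replicate numbers came from the sample titles. Gene models were GENCODE mouse release 21 and sequence was GRCm38.p6 from RefSeq, both on the build of the lists. Ranks take the best place among ties. The centre of a peak stands for the summit in the replicate lists. The X-box was the palindrome GTTGCCATGGCAAC with at most 3 mismatches, which reads the same on both strands, in 200 bp around the summit. Overlap and motif searches were tested on simulated data. All members are named, and genes of the other lists only where first, last or alone in their list. The members and lists were chosen with earlier results of these data known. Scripts used Python 3.11.15.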

Additional observations from a re-analysis of the deposited data

How the results depend on the processing

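The counts of bound members were recomputed with other promoter windows, TSS choices, overlap rules and score limits. Restricting each list to its top 10% by score moved the count in replicate 2 from 6 to 3 (Ift122, Ift140 and Wdr35), in both replicates to 3, and in the combined list from 3 to 1 (Ift122). The same limit took the count in replicate 1 from 6 to 4, without Ift43 and Tulp3. The counts under the other settings stayed within a factor of 1.5. This includes the top 50% by score, which took the combined list from 3 to 2, without Wdr19. A window of 500 bp upstream to 50 bp downstream, or the 5′-most coding TSS alone, left Ift140 out of replicate 1, so that 5 members were bound in both. Allowing half-sites 0 to 4 bp apart with at most 2 mismatches, a choice made after the data were seen, moved the members with a motif at the summit from 1 to 2 by adding Wdr35. Such a pair lay at the summits of 64.5% of all combined promoter peaks and in 2.29% of the windows beside them. Without replicate 1 or without replicate 2, the count of bound members was 6, which only repeats the count of the remaining list given above. No paired analysis was possible because no test was made between groups and the inputs have no list here. Weak binding below the authors' thresholds was not detectable, and with 2 replicates no spread between replicates was estimated.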

Other observations

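The spacing of half-sites seen at Wdr35 was counted over the combined promoter peaks, a count chosen after the data were seen. A pair with 1 base between the half-sites and at most 1 mismatch lay at the summits of 30 of the 412 promoter peaks without a 14-bp X-box (7.28%), of which Wdr35 is 1, and of 2 of the 591 with one (0.338%). Outside promoters it lay at 39 of 1723 summits (2.26%) and in 0.116% of the windows beside them.

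In exon 13 or 14 of Ift122, depending on the transcript, replicate 1 alone had a weak peak, with a score of 5.11 and a rank of 18786, which held an X-box with 2 mismatches. Next to the 3′ end of Wdr35, replicate 1 had 2 peaks in the promoter of the neighbouring gene Ttc32, with scores of 7.62 and 23.2, and replicate 2 had none there.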
